A study of Oryza sativa with 12 samples.

Results

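The heat shock factors and chaperones of rice are described here as 48 genes, given by locus ID: 24 heat shock factors, 13 small heat shock proteins (small HSPs), 1 HSP101, 3 HSP90 and 7 HSP70 genes. They were taken from a list of IDs by family, out of the 55986 IDs counted in one table and the 11688 IDs listed in the other. The list used no cut on measured values, but it was drawn up with earlier results of these data known. The files give no gene names or coordinates, and the reference table pairs none of these IDs with a name, so each gene is called by its ID and its role is that of its family. RNA was sequenced from the abscission zone of rice, the thin layer between spikelet and stalk where the ripe grain comes loose, sampled on the day the plants flowered. There were 4 groups of 3 libraries: the mutant line ossh1 with its wild type WT, and the mutant line oscct with its wild type CK, each library being a pool of 5 plants. Mutants and wild types received the same treatment, per the labels, and were grown in the field. The series' design text calls the mutants sh1 and oscct22. The sources used here do not name the allele of either mutant, the number of independent lines or the cultivar behind each wild type. The series title links OsCCT22, OsSh1 and OsCAD2 to shattering and lignin, and each comparison asks how the abscission zone of a mutant differs from that of its own wild type.

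Heat shock factors are transcription factors that bind heat shock elements in promoters. Some of them switch on chaperone genes when proteins unfold, for example in heat. The sources used here do not tell which of the 24 factors do so, so a rise of a factor is not read as activation. Small HSPs hold unfolding proteins and keep them from clumping. HSP101 pulls clumped proteins apart, HSP70 folds new and damaged proteins with the energy of ATP, and HSP90 brings signalling proteins to their active form and holds heat shock factors in check. Some members of each family are made at all times and others mainly under stress, so a family is not expected to move as a single block.

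The 6 libraries of the ossh1 table held from 27044341 to 32055561 counts. The oscct table lists only part of each library, with sums from 12526167 to 13318430 counts, so its depth is unknown and its levels are relative to the counts listed. No library repeated another: between replicates the chi-square per degree of freedom ran from 1.69 to 4.43. The labels name 2 growing places without tying a sample to either, and they give no temperature or hour of sampling. Growing place, heat in the field on the day of sampling and line background therefore cannot be told apart from the mutation in either comparison. Markers of the abscission zone, OsSh1 among them, and of other tissues had been listed by symbol. They were to be used only where the files or reference pair a symbol with an ID. Neither these markers nor OsCCT22 were analysed here. Raw counts are given per library; the WT libraries were larger than those of ossh1, so folds come from scaled values. In whole tissue, more RNA per cell and more cells that carry the RNA cannot be told apart.

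In ossh1, heat shock factors and chaperones were mostly higher than in WT. Of the 48 genes, 43 had enough counts to be tested, and 28 of these were higher in ossh1, 5 were lower and 10 did not pass an adjusted p of 0.05 (edgeR's quasi-likelihood test, Benjamini-Hochberg adjustment over all 22669 IDs tested). Over all these IDs 58.3% passed, 29.2% higher and 29.1% lower. A rise of at least 2-fold was found for 18 of the 43 genes and a fall of that size for 0, against 7.98% and 4.96% of all IDs tested. The median log2 fold change was 0.78 over the 43 genes and -0.01 over all IDs. Scaled by library totals alone, the split over all IDs moved from 6629 higher and 6593 lower to 5254 higher and 8364 lower, while that of the 48 genes moved to 26 higher and 8 lower.

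**Figure D1:**
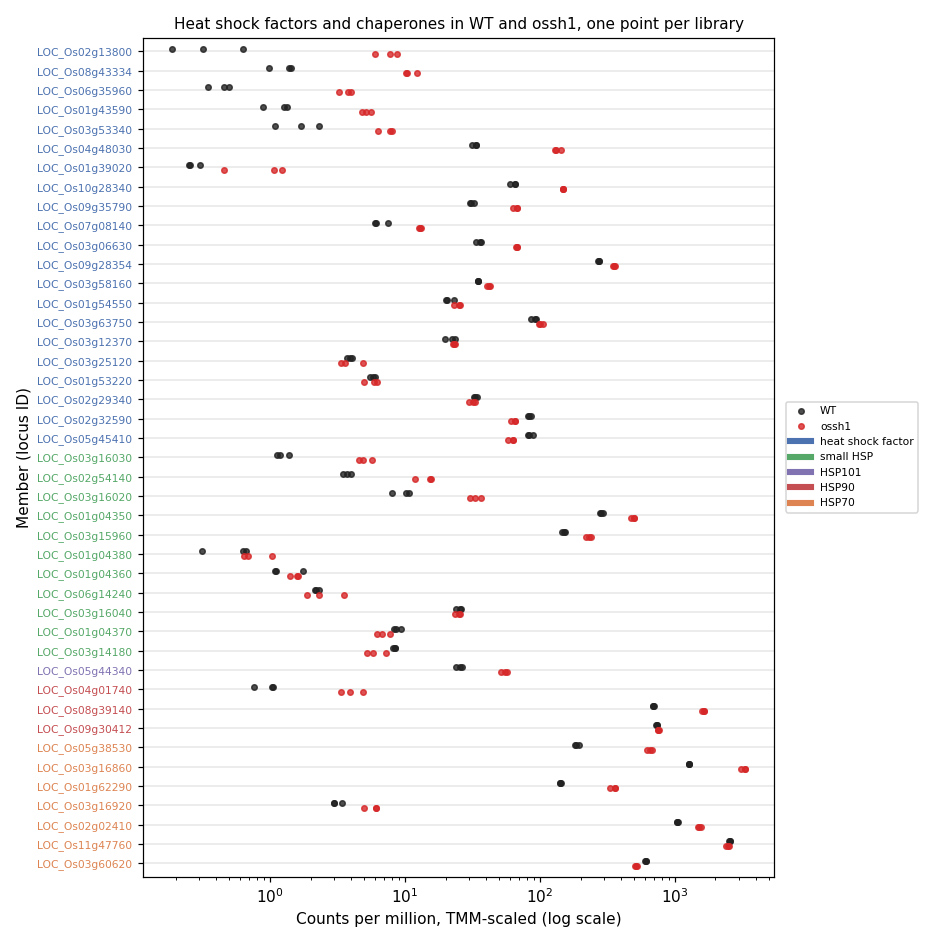
TMM-scaled CPM (log axis) of the 43 tested genes in each of 3 WT libraries (black) and 3 ossh1 libraries (red), with the locus IDs coloured by family and ordered within a family by log2 fold change. The widest gap between red and black points was that of the heat shock factor LOC_Os02g13800, and all libraries of ossh1 lay to the right of WT for the HSP101 gene.

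Among the 24 heat shock factors, 15 were higher in ossh1, 2 were lower, 4 did not pass the test and 3 had too few counts to be tested, with 8 counts or fewer in every library. LOC_Os02g13800 had 6, 10 and 21 counts in the WT libraries and 227, 201 and 167 in the ossh1 libraries. The groups were far apart, and its level was 0.38 ± 0.23 CPM (counts relative to library size, TMM-scaled) in the WT libraries against 7.46 ± 1.35 in those of ossh1 (SD, n = 3). Of the 43 genes it had the largest fitted change, a change of 4.27 in log2 (SE 0.25; edgeR, adjusted p = 7.39e-19). Without WT replicate 3, the library with 21 counts, that value was 4.86.

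LOC_Os08g43334 had 46, 31 and 46 counts in WT and 273, 267 and 342 in ossh1, a change of 3.11 in log2 (SE 0.16; edgeR, adjusted p = 1.2e-20). LOC_Os06g35960 had 16, 11 and 15 counts in WT against 99, 103 and 91 in ossh1, with a log2 fold change of 3.06 (SE 0.27). Both had few reads in WT, and no ossh1 library came near the WT range. LOC_Os01g43590 was 4.42-fold higher, with 41, 28 and 44 counts in WT and 134, 126 and 155 in ossh1. LOC_Os03g53340 was 4.34-fold higher, with 74, 34 and 56 counts in WT and 202, 210 and 177 in ossh1. LOC_Os01g39020 had 8, 8 and 10 counts in WT and 12, 32 and 30 in ossh1, so its rise (1.76 in log2, SE 0.44; edgeR, adjusted p = 6.72e-04) rests on few reads, and 1 ossh1 library lay close to WT.

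A factor with many more reads moved as well. LOC_Os04g48030 had 1010, 1051 and 1112 counts in WT and 3759, 3422 and 3585 in ossh1, a change of 2.03 in log2 (SE 0.05; edgeR, adjusted p = 1.1e-32). LOC_Os09g35790 had 991, 955 and 1075 counts in WT and 1766, 1756 and 1768 in ossh1, which after scaling was 2.11-fold higher. Not every factor took part to that extent. LOC_Os09g28354, the factor with the most reads (8724, 8470 and 9075 counts in WT), was 1.3-fold higher after scaling. The largest fall was that of LOC_Os05g45410, from 2847, 2568 and 2735 counts to 1643, 1658 and 1614, a change of -0.46 in log2 (SE 0.05; edgeR, adjusted p = 2.51e-11). LOC_Os01g53220 had 186, 190 and 184 counts in WT and 164, 130 and 165 in ossh1, and its log2 fold change of -0.02 (SE 0.13) did not pass the test.

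The HSP70 and HSP90 families were each divided in ossh1. Of 7 HSP70 genes, 5 were higher, 1 was lower and 1 did not pass the test. LOC_Os05g38530 rose most, from 6207, 5796 and 6041 counts to 17605, 17090 and 17186, or from 187 ± 6.01 to 649 ± 28.3 CPM (SD, n = 3), 3.47-fold higher. LOC_Os03g16860 had 41056, 40336 and 42108 counts in WT and 86997, 86722 and 85935 in ossh1, a change of 1.34 in log2 (SE 0.03; edgeR, adjusted p = 5.63e-36). The libraries of each group lay close together, and those of ossh1 stood well above WT for both genes. LOC_Os01g62290 had 4510, 4505 and 4656 counts in WT and 9422, 9398 and 9204 in ossh1, with a log2 fold change of 1.31 (SE 0.03). LOC_Os02g02410 rose less, with a log2 fold change of 0.54 (SE 0.03), from 33169, 32846 and 34898 counts to 41086, 39595 and 41216.

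LOC_Os03g16920 had 95, 108 and 99 counts in WT and 131, 158 and 170 in ossh1, 1.83-fold higher after scaling. The remaining HSP70 genes, LOC_Os11g47760 and LOC_Os03g60620, did not pass the test or were lower. LOC_Os11g47760 averaged 2544 ± 25.6 CPM in the WT libraries against 2471 ± 65.6 in those of ossh1 (SD, n = 3), and its log2 fold change of -0.04 (SE 0.02; edgeR, adjusted p = 0.118) did not pass the test. With library totals it was -0.14 (adjusted p = 1.48e-06, edgeR) and passed. LOC_Os03g60620 was at 609 ± 10.3 CPM in the WT libraries and fell to 515 ± 11.3 (SD, n = 3), with a change of -0.24 in log2 (SE 0.03; edgeR, adjusted p = 5.66e-10).

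Among the 3 HSP90 genes, LOC_Os08g39140 had 21994, 21855 and 22714 counts in WT and 42772, 41469 and 45457 in ossh1, 2.35-fold higher after scaling (adjusted p = 8.08e-35, edgeR). LOC_Os04g01740, with 33, 24 and 35 counts in WT and 128, 102 and 93 in ossh1, was 4.23-fold higher. In contrast LOC_Os09g30412 averaged 734 ± 4.69 CPM in the WT libraries against 751 ± 5.81 in those of ossh1 (SD, n = 3), and the log2 fold change was 0.03 (SE 0.03), which did not pass the test. With library totals it was -0.0616 (adjusted p = 0.0414, edgeR). The single HSP101 gene, LOC_Os05g44340, had 763, 837 and 841 counts in WT and 1432, 1491 and 1435 in ossh1. Every ossh1 library was above every WT library, and the change was 1.11 in log2 (SE 0.06; edgeR, adjusted p = 3.74e-20).

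Small HSP genes were mixed in ossh1, with 5 of 13 higher, 2 lower, 4 not past the test and 2 with at most 10 counts in any library. LOC_Os03g16030 had 36, 37 and 46 counts in WT and 128, 120 and 158 in ossh1, a change of 2.04 in log2 (SE 0.19; edgeR, adjusted p = 3.59e-12). LOC_Os02g54140 had 112, 118 and 132 counts in WT and 400, 405 and 332 in ossh1, 3.79-fold higher. LOC_Os03g14180 fell most, from 269, 266 and 269 counts to 136, 190 and 162, a change of -0.45 in log2 (SE 0.12; edgeR, adjusted p = 0.00193).

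By their serial numbers, which follow gene order along a chromosome in this naming scheme, several small HSP IDs are near neighbours. These IDs were picked after their values were seen, and differences between neighbours were not tested. On chromosome 3, LOC_Os03g16020 was 3.45-fold higher in ossh1 (326, 336 and 266 counts in WT; 860, 956 and 838 in ossh1) and LOC_Os03g16030 4.1-fold higher. LOC_Os03g15960 rose less, from 4708, 4800 and 4960 to 6294, 5735 and 6397 counts, a log2 fold change of 0.62 (SE 0.04). LOC_Os03g16040 had 828, 807 and 786 counts in WT and 661, 665 and 659 in ossh1, and its log2 fold change of -0.02 (SE 0.07) did not pass the test. On chromosome 1, LOC_Os01g04350 rose from 9088, 8739 and 9714 to 13089, 12924 and 13145 counts (log2 fold change 0.78, SE 0.03). Its neighbour LOC_Os01g04370 had 265, 269 and 309 counts in WT and 202, 161 and 189 in ossh1, a change of -0.34 in log2 (SE 0.12; edgeR, adjusted p = 0.0115). That call was lost without WT replicate 3 (adjusted p = 0.0632) or without ossh1 replicate 2 (adjusted p = 0.0703). LOC_Os01g04360 and LOC_Os01g04380, between 10 and 55 counts in every library, did not pass the test. Small HSP genes and HSP70 genes have close copies whose reads can be shared. The treatment of such reads in counting is not stated, so values of single copies are uncertain.

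In oscct, most of the listed heat shock factors and chaperones were lower than in CK: 9 of 14 tested factors and 11 of 14 tested chaperones fell, while 4 factors and 3 chaperones rose. The oscct table lists 29 of the 48 genes, all of them among the 43 tested for ossh1. Among all IDs tested for ossh1, 47.8% were listed. Nearly all of its rows pass a test between the groups, and the rows appear to have been chosen for a difference. A member without a row is not listed rather than unchanged, and the calls describe the listed IDs only. If rows were chosen for a difference in these libraries, an adjusted p for oscct re-tests that difference and adds no independent evidence. The test of the difference between mutants draws on the same rows. Of the 28 listed genes with enough counts, 7 were higher in oscct, 20 were lower and 1 did not pass the test. Of all 11518 IDs tested, 99.2% passed, 48.9% higher and 50.3% lower. A fall of at least 2-fold was found for 9 of the 28 genes and a rise of that size for 4, against 12.6% and 14.3% of all IDs tested. The median log2 fold change was -0.76 over the 28 genes and -0.09 over all IDs. Scaling by listed totals moved the latter to 0.08 and gave 8 of the genes higher and 17 lower.

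**Figure D2:**
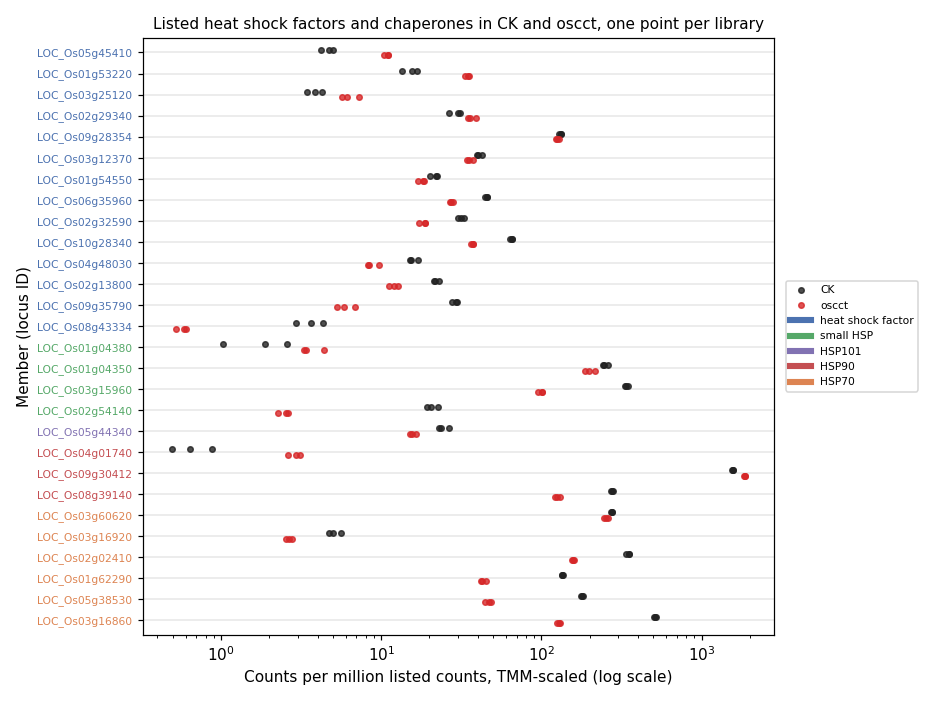
TMM-scaled CPM of listed counts (log axis) of the 28 tested genes in each of 3 CK libraries (black) and 3 oscct libraries (red), with the locus IDs coloured by family and ordered within a family by log2 fold change. Red points lie to the left of black ones for all 6 HSP70 genes and for HSP101, and to the right for 2 of the 3 HSP90 genes.

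All 6 listed HSP70 genes were lower in oscct, although the smallest fall depends on the scaling. LOC_Os03g16860 had 6328, 6303 and 6456 counts in CK and 1710, 1661 and 1777 in oscct, 4-fold lower (-2 in log2, SE 0.03; edgeR, adjusted p = 1.25e-17). LOC_Os05g38530 had 2266, 2155 and 2266 counts in CK and 590, 631 and 664 in oscct, 3.83-fold lower. LOC_Os01g62290 had 1683, 1656 and 1680 counts in CK and 602, 569 and 568 in oscct, 3.12-fold lower. These are the HSP70 genes with the largest rises in ossh1, and in both tables the groups were apart. The groups were also apart for 14134 of all 22669 IDs tested for ossh1 and 11323 of all 11518 tested for oscct. LOC_Os02g02410 was 2.22-fold lower, with 4413, 4311 and 4254 counts in CK and 2052, 2108 and 2164 in oscct. LOC_Os03g60620 had 3436, 3366 and 3411 counts in CK and 3457, 3288 and 3437 in oscct, a change of -0.12 in log2 (SE 0.03; edgeR, adjusted p = 0.00165) that was 0.0534 with listed totals (adjusted p = 0.11, edgeR).

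The HSP101 gene LOC_Os05g44340 had 296, 323 and 287 counts in CK and 200, 219 and 212 in oscct, a change of -0.63 in log2 (SE 0.08; edgeR, adjusted p = 2.65e-06). The HSP90 genes again split. LOC_Os08g39140, summed over 2 rows, fell from 3494, 3300 and 3477 counts to 1736, 1633 and 1713, 2.18-fold lower. LOC_Os09g30412 was a little higher, with 19496, 19297 and 19790 counts in CK and 24768, 24496 and 25563 in oscct (log2 fold change 0.24, SE 0.02). LOC_Os04g01740 was higher too, with 11, 6 and 8 counts in CK and 39, 35 and 42 in oscct, 4.25-fold higher on few reads.

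Of 13 small HSP genes, 5 were listed. LOC_Os02g54140 had 284, 236 and 256 counts in CK and 35, 34 and 31 in oscct, 8.35-fold lower (-3.06 in log2, SE 0.12; edgeR, adjusted p = 1.35e-12), the largest change of the 28 genes. LOC_Os03g15960 fell from 4240, 4238 and 4196 counts to 1276, 1340 and 1379, 3.43-fold lower. LOC_Os01g04350 fell by 0.32 on the log2 scale (SE 0.05), from 3270, 3013 and 3055 counts to 2641, 2886 and 2540. LOC_Os01g04380 was higher, with 32, 23 and 13 counts in CK and 45, 59 and 45 in oscct, a change of 1.02 in log2 (SE 0.25; edgeR, adjusted p = 0.00116). LOC_Os03g14180, listed at 1, 0 and 0 counts in CK and 9, 10 and 16 in oscct, was too low to enter this test.

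Heat shock factors in oscct were split, with 14 of 24 listed, 4 higher, 9 lower and 1 not past the test. LOC_Os08g43334 had 54, 36 and 46 counts in CK and 8, 7 and 8 in oscct, 6.29-fold lower (-2.65 in log2, SE 0.27; edgeR, adjusted p = 1.21e-07). LOC_Os09g35790, summed over 2 rows, had 347, 363 and 370 counts in CK and 78, 91 and 72 in oscct, 4.83-fold lower. Both were higher in ossh1 than in WT. In the other direction, LOC_Os05g45410 rose from 62, 51 and 59 counts to 147, 138 and 150, 2.34-fold higher, and LOC_Os01g53220 from 210, 164 and 196 to 446, 465 and 483, 2.26-fold higher. LOC_Os02g13800 had 285, 259 and 271 counts in CK and 149, 171 and 164 in oscct, and it fell by 0.86 (SE 0.08) on the log2 scale. LOC_Os06g35960 had 574, 546 and 575 counts in CK and 357, 366 and 384 in oscct, and it fell by 0.73 (SE 0.06). For both, the oscct libraries lay below every CK library, and nearly all IDs tested in that table had groups that did not overlap. LOC_Os04g48030, with 211, 186 and 189 counts in CK and 128, 110 and 114 in oscct, fell by 0.85 (SE 0.1), and LOC_Os10g28340, summed over 3 rows, fell by 0.81 (SE 0.05). In ossh1 the log2 fold change of LOC_Os10g28340 was 1.22 (SE 0.04).

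**Figure D3:**
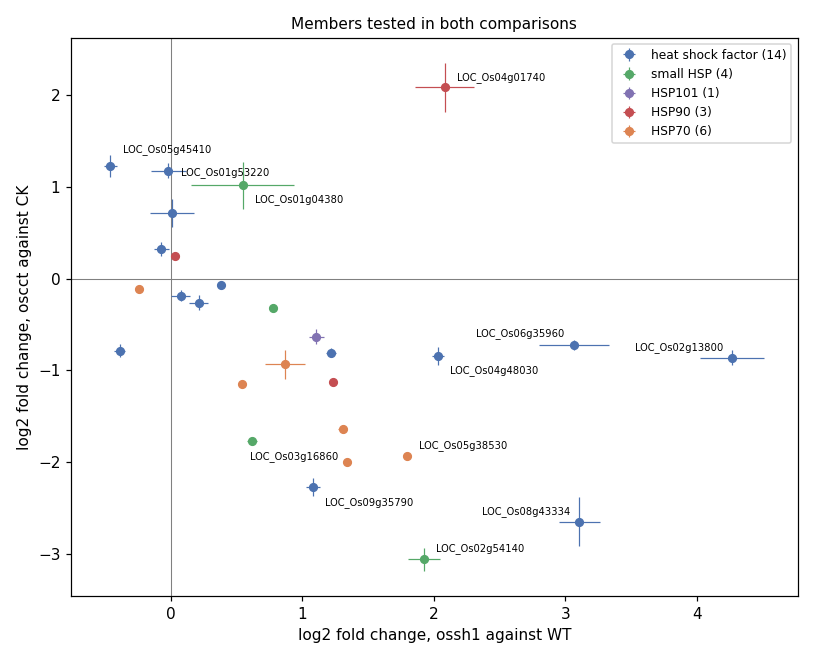
Log2 fold change of ossh1 against WT (horizontal axis) and of oscct against CK (vertical axis) for the 28 genes tested in both comparisons, with standard errors as bars and families as colours. Of the 21 genes past both tests, 17 lie in the lower right, higher in ossh1 and lower in oscct, and only LOC_Os04g01740 lies in the upper right. LOC_Os01g04380, LOC_Os03g25120 and LOC_Os09g30412 are in the upper right too, but did not pass the test in ossh1.

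Set side by side, the changes of the mutants were opposite for most of these genes. The comparisons share no library. Of 21 genes past both tests, 17 were higher in ossh1 and lower in oscct, 1 was lower in ossh1 and higher in oscct, 1 was higher in both and 2 were lower in both. The first pattern was seen in 7 of 9 heat shock factors and 10 of 12 chaperones. Over all 7303 IDs past both tests, 32.9% were higher in ossh1 and lower in oscct, and 62.2% went in opposite directions. The difference between the changes was tested in a single model of all 12 libraries: 27 of 29 genes passed an adjusted p of 0.05 (edgeR's quasi-likelihood test), as did 80.3% of all 11655 IDs tested, so the number passing is not particular to these genes. The change in oscct was below that in ossh1 for 20 of the 27 and above it for 7.

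LOC_Os04g01740, the HSP90 gene with few reads, was the only one of the 21 genes higher in both mutants, and its changes differed by 0.02 (SE 0.34) on the log2 scale. The lower-in-both genes were the heat shock factor LOC_Os02g32590, with log2 fold changes of -0.39 in ossh1 and -0.79 in oscct, and the HSP70 gene LOC_Os03g60620. The 14 tested genes with no row in the oscct table included 9 that rose in ossh1 and 1 that fell, and nothing can be said of their change in oscct.

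**Figure D4:**
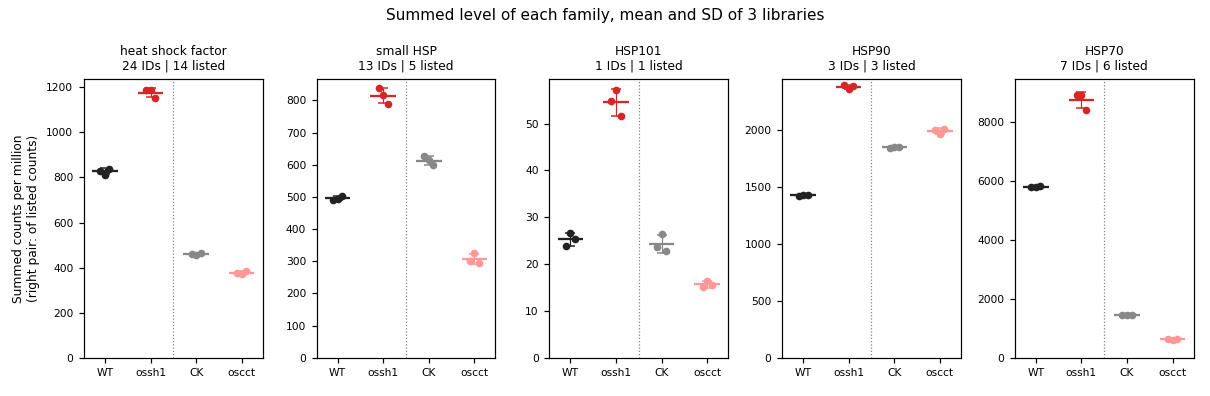
Summed TMM-scaled CPM of the member genes of each family in every library (points), with the mean and SD of 3 libraries as lines. The dotted line parts the 2 tables, whose levels are on different scales and hold different numbers of IDs. All family sums were higher in ossh1 than in WT, and in oscct all but that of HSP90 were lower than in CK.

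Family sums can hide members that move apart. They cover only the genes of the member list, so they are not levels of whole families. LOC_Os09g30418, an ID of the further list below, is near the HSP90 gene LOC_Os09g30412 by serial number. It averaged 1766 CPM in WT and 1818 in ossh1 and did not pass the test, and its family could not be checked. The 7 HSP70 genes together made up 5809 ± 23.3 CPM in the WT libraries against 8762 ± 286 in those of ossh1 (SD, n = 3). The 6 listed ones were at 1453 ± 10.2 CPM of listed counts in CK and 631 ± 8.16 in oscct. They lack LOC_Os11g47760, which averaged 2544 CPM in WT and 2471 in ossh1. The sizes of the HSP70 changes in the mutants therefore cannot be compared by these sums. Small HSP genes summed to 496 ± 5.39 CPM in WT and 815 ± 23.8 in ossh1, and the 5 listed to 613 ± 14.5 in CK and 307 ± 15.5 in oscct. The HSP90 sum was 1424 ± 4.26 CPM in WT and 2375 ± 18.2 in ossh1, but in the other table it was slightly higher in the mutant, at 1848 ± 5.37 in CK and 1988 ± 24.8 in oscct, where LOC_Os09g30412 carried most of it. The heat shock factors summed to 826 ± 13.3 CPM in WT and 1176 ± 19 in ossh1, and the 14 listed to 459 ± 3.98 in CK and 378 ± 7.06 in oscct. In each of these sums the libraries of the groups did not overlap. The same held for 14134 of the 22669 single IDs tested for ossh1 and 11323 of the 11518 tested for oscct, so it is not particular to these families. No sum was tested, since it would restate the tests of its members.

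A further list of 20 IDs was drawn up from general knowledge of rice chaperone and heat response families, which neither the files nor the reference table can check. In ossh1, 17 were tested, of which 9 rose, 4 fell and 4 did not pass, with a median log2 fold change of 0.12. In oscct, 13 were tested, of which 1 rose and 12 fell, with a median of -0.51. Of the 11 past both tests, 8 were higher in ossh1 and lower in oscct, 3 were lower in both and 0 were higher in both. Over all IDs tested, 29.2% were higher and 29.1% lower in ossh1, and 48.9% were higher and 50.3% lower in oscct. Among all IDs past both tests, 32.9% were higher in ossh1 and lower in oscct.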

How the data were processed

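RNA-seq libraries of the abscission zone were compared within each of 2 tables. The authors deposited read counts, whole numbers per the file headers and values, for WT and ossh1. For CK and oscct the authors deposited estimated counts, headed as read counts, of selected rows. The submitters' processing notes list RSEM 1.3.1, HISAT2 and DESeq2 as tools and IRGSP-1.0 as build, without saying what each was used for. The step that selected rows, and whether counting used strand, are not given in the sources used here. Rows of an ID were summed, then rounded. Each table was fitted whole in edgeR 4.0.16 (R 4.3.3) with filterByExpr, TMM, glmQLFit, glmQLFTest and Benjamini-Hochberg adjustment, threshold 0.05. The difference between mutants used 1 model with the TMM factors of each table. An SE is the log2 fold change divided by the square root of its F statistic. DESeq2 1.42.0 was an alternative. The procedures were tested on simulated data. Figures used matplotlib 3.10.9.

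Each library is a pool of separate plants, but the labels do not say whether pools came from separate plots. The members and lists were chosen with earlier results of these data known. Named with library values were the 12 largest changes of at least 2-fold per comparison, HSP101 and the largest rise and fall of each family, given in both comparisons where tested, with library values where these help. Neighbouring small HSP IDs, LOC_Os11g47760, LOC_Os03g16920, LOC_Os10g28340, LOC_Os02g32590 and LOC_Os09g28354 were added after their values were seen. So were LOC_Os04g01740 as the gene higher in both and the control groups side by side. No protein or promoter sequence of the members was used here.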

Additional observations from a re-analysis of the deposited data

Results flagged for a closer look

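The change in oscct differed from that in ossh1, by the test of the difference itself, for the following named genes. Each value is the log2 fold change of oscct against CK minus that of ossh1 against WT, and a negative value means that oscct changed less upward or more downward. All had an adjusted p of at most 0.00727 in edgeR's quasi-likelihood test. IDs enter only if listed for oscct, and 80.3% of all IDs tested passed an adjusted p of 0.05.

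Among heat shock factors the difference was -5.77 (SE 0.32) for LOC_Os08g43334, -5.12 (SE 0.26) for LOC_Os02g13800 (-5.71 without WT replicate 3) and -3.78 (SE 0.19) for LOC_Os06g35960. It was -3.35 (SE 0.11) for LOC_Os09g35790 and -2.88 (SE 0.11) for LOC_Os04g48030. LOC_Os05g45410 and LOC_Os01g53220 differed the other way, by 1.69 (SE 0.13) and 1.2 (SE 0.14).

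Among small HSP genes it was -4.99 (SE 0.19) for LOC_Os02g54140 and -2.4 (SE 0.05) for LOC_Os03g15960. The other way, LOC_Os03g14180, with 1, 0 and 0 counts in CK, had a fitted difference of 5.19 (SE 0.81; edgeR, adjusted p = 2.92e-06), whose size depends on the prior count and which was too low to be tested within the oscct table. For HSP101 (LOC_Os05g44340) it was -1.74 (SE 0.1). Among HSP90 genes it was -2.36 (SE 0.04) for LOC_Os08g39140 and 0.21 (SE 0.03) for LOC_Os09g30412.

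Among HSP70 genes it was -3.73 (SE 0.06) for LOC_Os05g38530, -3.35 (SE 0.04) for LOC_Os03g16860 and -2.95 (SE 0.06) for LOC_Os01g62290. It was -1.69 (SE 0.04) for LOC_Os02g02410 and 0.13 (SE 0.04) for LOC_Os03g60620. The role of growing place, heat at sampling and line background in these differences was not tested.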

How the results depend on the processing

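Of 988 values of named genes under the alternatives, 970 kept their direction and their side of the threshold. Not every named gene was among them. LOC_Os10g28340, LOC_Os03g16920, LOC_Os02g32590, LOC_Os09g28354, LOC_Os03g25120 and the difference of LOC_Os03g14180 were left out of this check. With library totals in place of TMM, 8 members instead of 5 were lower in ossh1, LOC_Os09g30412 turned to -0.0616 in ossh1 (past the test, adjusted p = 0.0414, edgeR) and LOC_Os03g60620 to 0.0534 in oscct; totals shift the median of all IDs down in ossh1 and up in oscct. With each library left out in turn, log2 fold changes near 0 that did not pass the test changed sign: LOC_Os01g53220 in ossh1 ran from -0.0856 to 0.0726, LOC_Os03g16040 in ossh1 from -0.0566 to 0.0179, and the difference of LOC_Os04g01740 between mutants from -0.158 to 0.263. Without ossh1 replicate 2, LOC_Os11g47760 passed the test at -0.059. Members higher in ossh1 then numbered 27 to 28 and those lower 4 to 5, and in oscct 7 to 8 and 20. RLE scaling and a filter at a mean of 1 CPM or none kept the counts of calls for each mutant and for their difference within 1.5 times. So did DESeq2 for each mutant, the most abundant row of an ID for oscct, and TMM without the members (added after seeing the data) for ossh1. Same-numbered replicates did not deviate together (correlations from -0.0362 to 0.0234). Such values show no shared deviation but cannot tell whether the numbers pair samples, so the main fits used no pairing. With the replicate block, 28 members were higher and 5 lower in ossh1, and 12971 instead of 13222 IDs passed. The unknown depth of the oscct table limits what can be said of its unlisted genes.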

Other observations

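The wild types WT and CK come from separate tables with separate scaling, and CK values are relative to the counts listed, so the following levels are given without a test. For 25 of the 28 genes tested in both tables, the log2 ratio of WT to CK lay between the 5th and 95th percentile of all 10734 IDs tested in both, which were -3.74 and 2.64 (with 0.5 CPM added to each level). The other 3 were heat shock factors. LOC_Os06g35960 averaged 14 counts in WT and 565 in CK, a log2 ratio of -5.62. LOC_Os02g13800 averaged 12.3 counts in WT and 272 in CK, a log2 ratio of -4.67. LOC_Os05g45410 averaged 2717 counts in WT and 57.3 in CK, a log2 ratio of 4.05. For LOC_Os06g35960 the gap between the wild types was larger than the rise from WT to ossh1. For LOC_Os05g45410 the gap was larger than either mutant's change. For LOC_Os02g13800 the gap and the rise in ossh1 (4.27 in log2) cannot be ranked. They are on different scales, and the 0.5 CPM was added only for the gap. The median log2 ratio of WT to CK over all IDs was -0.59. These genes were picked after their values were seen.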
